A study of Mus musculus with 2 samples.

Results

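Enterocytes are the absorptive cells that line the lumen of the small intestine, and 10 genes that mark their brush border and their work in digestion and absorption were followed here in the muscle wall of the jejunum. They were taken by symbol from the table of 18159 genes, and all 10 were listed: *Fabp1*, *Fabp2*, *Slc5a1*, *Lct*, *Sis*, *Alpi*, *Anpep*, *Vil1*, *Epcam* and *Cdh17*. The tissue was jejunal tunica muscularis, labelled jejunum smooth muscle, from C57BL/6 mice at 15 days of age (P15). The mucosa had been stripped off by hand of the muscle before RNA extraction. For both libraries the strain label names the transgene Tg(Myh11-cre,-EGFP)2Mik and, with it, the floxed allele Dnmt1lox/lox. In *Dnmt1*-KO mice, *Cre* and *eGFP* are driven by the *Myh11* promoter and *Dnmt1* is deleted in smooth muscle cells, so that epithelial cells are not the target of the deletion. By the study's results section, *Dnmt1*-WT mice carry the same *Cre-eGFP* transgene. The genotype given for them there names no floxed allele, unlike the strain label. The free-text description of both libraries names the knockout, and the genotype label was followed. RNA came from 4 mice of both sexes per genotype and gave 1 library each, and how their RNA was combined is not stated. Every difference below is therefore between 2 libraries, without a replicate check and without a test.

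Digestion ends at the apical membrane of the enterocyte, where microvilli carry enzymes that split sugars, peptides and phosphate esters and transporters that take up the products. Fatty acids are bound in the cytosol by small carrier proteins and are built into chylomicrons. In the mouse, lactase is high while pups suckle, and sucrase-isomaltase and trehalase become abundant at weaning.

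The genes are given as FPKM, fragments corrected for the length of the transcript and for the number of fragments mapped, so that levels can be compared between genes within a library. The targeted gene, *Dnmt1*, stood at 11.58 FPKM in *Dnmt1*-WT against 7.58 FPKM in *Dnmt1*-KO, a ratio of 0.655. The 7 smooth muscle genes examined as the check of the tissue label (*Myh11*, *Acta2*, *Tagln*, *Cnn1*, *Actg2*, *Des* and *Smtn*) lay between 394.94 and 5408.13 FPKM in *Dnmt1*-WT and between 168.81 and 4016.24 FPKM in *Dnmt1*-KO, so the defining transcripts of smooth muscle were abundant in both. The deposited table gives no read counts, and the counting error of the values was not computed here.

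All 10 enterocyte genes were above 0 FPKM in both libraries, and 9 of them were higher in *Dnmt1*-KO. The exception was *Sis*. Between the libraries, a ratio (*Dnmt1*-KO over *Dnmt1*-WT) of 2 or more was found for 4 of the 10 genes, against 11.8% of the 16102 genes above 0 FPKM in both libraries. A ratio of 0.5 or less was found for 1, against 4.98%, and the remaining 5 had ratios from 1.45 to 1.91. A ratio above 1 was found for 50.3% of all these genes. Among the 12441 genes whose geometric mean of the libraries lay within that of the enterocyte genes, 0.99 to 78.29 FPKM, 7.53% reached a ratio of 2, 3.31% a ratio of 0.5 or less and 47.2% had a ratio above 1. The median log2 ratio of the 10 genes, with 0.1 added to each FPKM, was 0.86, and that of the 17585 genes above 0 FPKM in at least 1 library was 0.02. In bulk tissue, more cells of a type and more RNA per cell cannot be told apart.

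**Figure D1:**
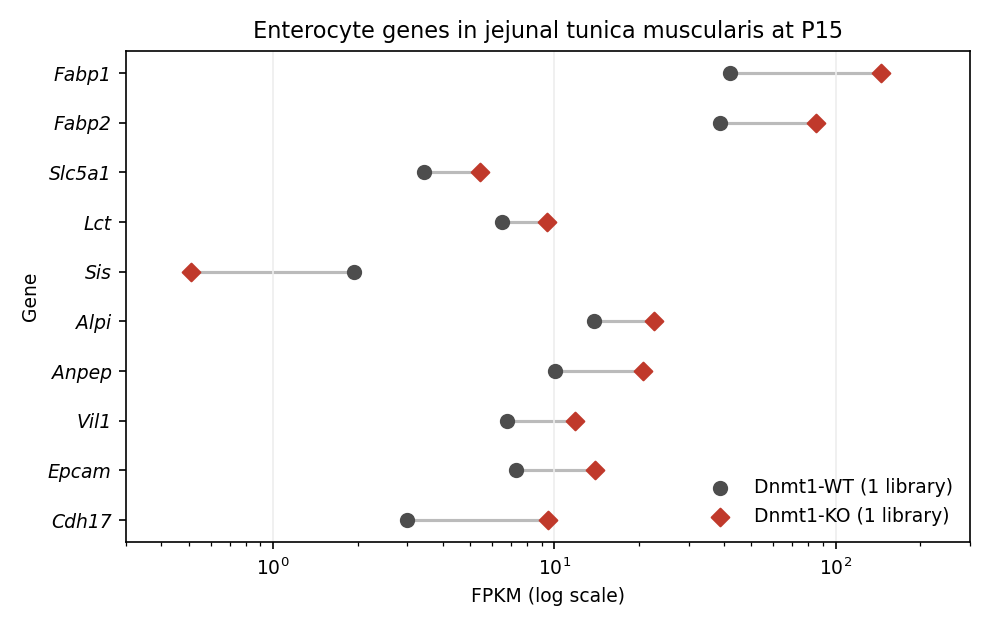
FPKM of each enterocyte gene on a log axis, with a circle for the *Dnmt1*-WT library, a diamond for the *Dnmt1*-KO library and a grey line joining them (1 library each, no error bars). The diamond lies to the right of the circle for 9 genes and to the left for *Sis*, which went from 1.93 to 0.51 FPKM.

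**Figure D2:**
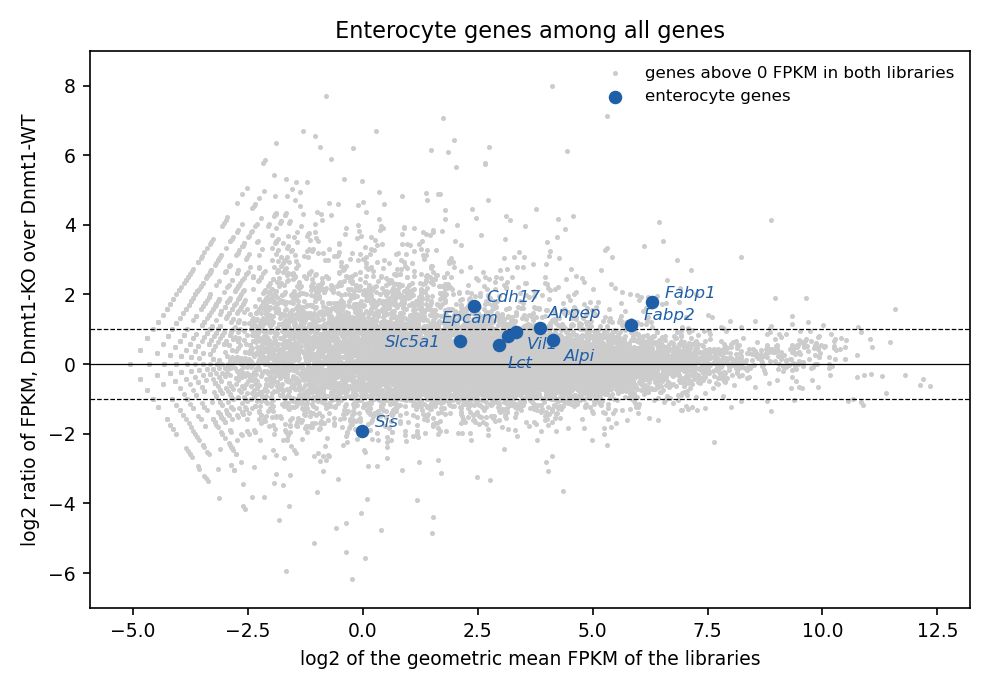
Each grey point is a gene above 0 FPKM in both libraries, placed by the log2 of its geometric mean FPKM (x axis) and the log2 ratio of *Dnmt1*-KO to *Dnmt1*-WT (y axis), with the enterocyte genes in blue. Dashed lines mark ratios of 2 and 0.5: *Fabp1*, *Fabp2*, *Anpep* and *Cdh17* lie above the upper line and *Sis* lies below the lower one.

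The fatty acid carriers were the most abundant of the genes. *Fabp1*, the liver-type fatty acid binding protein that is also abundant in the proximal small intestine, was listed at 42.13 FPKM in *Dnmt1*-WT and 145.49 FPKM in *Dnmt1*-KO, a ratio of 3.45. This was the highest ratio of the 10, and it moved the gene from the top 10.1% of detected genes to the top 2.66%. *Fabp2*, the intestinal carrier, was listed at 38.79 and 85.06 FPKM, a ratio of 2.19. The carriers stood at nearly the same level in *Dnmt1*-WT, where *Fabp1* was 1.09 times *Fabp2*, whereas in *Dnmt1*-KO it was 1.71 times *Fabp2*. *Fabp1* lies on chromosome 6 of GRCm38 from 71199827 to 71205023 and *Fabp2* on chromosome 3 from 122895072 to 122899506, both on the plus strand.

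The genes of sugar digestion and uptake differed in direction. *Lct*, which encodes lactase, was listed at 6.5 FPKM in *Dnmt1*-WT and 9.44 FPKM in *Dnmt1*-KO, a ratio of 1.45. *Sis*, which encodes sucrase-isomaltase, was listed at 1.93 and 0.51 FPKM, a ratio of 0.264. With 1 added to each value its log2 ratio was -0.96, which falls short of a ratio of 0.5. *Sis* was the lowest of the 10 genes in both libraries. Within a library, *Lct* was 3.37 times *Sis* in *Dnmt1*-WT and 18.5 times *Sis* in *Dnmt1*-KO. *Slc5a1*, which encodes the sodium-coupled glucose transporter SGLT1, was listed at 3.44 and 5.45 FPKM, a ratio of 1.58 that stood nearer to that of *Lct* than to that of *Sis*. *Lct* lies on chromosome 1 from 128284756 to 128328318 and *Sis* on chromosome 3 from 72888557 to 72967863, both on the minus strand, and *Slc5a1* on the plus strand of chromosome 5 from 33104219 to 33162870.

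Both remaining enzymes were higher in *Dnmt1*-KO. *Alpi*, the intestinal alkaline phosphatase, was listed at 13.86 FPKM in *Dnmt1*-WT and 22.55 FPKM in *Dnmt1*-KO, a ratio of 1.63. *Anpep*, aminopeptidase N, which removes amino acids from the ends of peptides, was listed at 10.07 and 20.61 FPKM. Its ratio of 2.05 was just above 2 and dropped below it when the libraries were scaled to their FPKM sums or when 1 was added to each value. *Anpep* is also made by some fibroblasts and leukocytes, and general markers of both are given below. *Alpi* lies on chromosome 1 from 87098002 to 87101606 and *Anpep* on chromosome 7 from 79821803 to 79861059, both on the minus strand.

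The structural genes of the epithelial cell were higher in *Dnmt1*-KO as well. *Vil1*, which encodes villin, the actin bundler of the microvillus core, was listed at 6.78 FPKM in *Dnmt1*-WT and 11.83 FPKM in *Dnmt1*-KO, a ratio of 1.74. *Epcam*, an adhesion molecule of epithelial cells in general, was listed at 7.3 and 13.95 FPKM, a ratio of 1.91 and the nearest below 2. *Cdh17*, the liver-intestine cadherin, was listed at 2.98 and 9.52 FPKM, a ratio of 3.19 and the nearest to that of *Fabp1*. Set against *Epcam* in the same library, *Cdh17* went from 0.408 to 0.682 times its level, *Vil1* from 0.929 to 0.848 times and *Sis* from 0.264 to 0.0366 times. *Vil1* lies on chromosome 1 from 74409376 to 74435559, *Epcam* on chromosome 17 from 87635979 to 87651129 and *Cdh17* on chromosome 4 from 11758147 to 11817895, all on the plus strand.

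The number of transcript variants found per gene was the same in both libraries for 9 of the 10 genes. For 6 of them it was 1 in each library, and *Lct* and *Anpep* had 3 and *Slc5a1* had 2. *Vil1* had 1 variant in *Dnmt1*-WT and 2 in *Dnmt1*-KO. The variants are not named in the deposited table.

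Sequence before the start of 4 of the genes is shown. They are *Fabp1* with the highest ratio, *Alpi* with a ratio of 1.63, and the disaccharidase genes *Lct* and *Sis*, which differed in direction. The sequences are those of RefSeq for GRCm38.p6, in which 9 of the 10 genes were matched, read 5′ to 3′ along the gene's own strand from 250 bases before the RefSeq start. For *Fabp1* the printed sequence stops after 198 bases, where the GENCODE transcript begins. The windows are chr6:71199629-71199826 on the plus strand for *Fabp1*, chr1:87101607-87101856 on the minus strand for *Alpi*, chr1:128328319-128328568 on the minus strand for *Lct* and chr3:72967864-72968113 on the minus strand for *Sis*. Capitals mark the letters, on either strand, of TTTATG, used for CDX2, AGATAA, used for GATA factors, and CAAAGTCCA, used for HNF4A. These are transcription factors of the intestinal epithelium.
Fabp1 promoter: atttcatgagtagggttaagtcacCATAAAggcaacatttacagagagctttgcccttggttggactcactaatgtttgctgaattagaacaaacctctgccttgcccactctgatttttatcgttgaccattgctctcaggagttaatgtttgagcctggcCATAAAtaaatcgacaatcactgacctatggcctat
Alpi promoter: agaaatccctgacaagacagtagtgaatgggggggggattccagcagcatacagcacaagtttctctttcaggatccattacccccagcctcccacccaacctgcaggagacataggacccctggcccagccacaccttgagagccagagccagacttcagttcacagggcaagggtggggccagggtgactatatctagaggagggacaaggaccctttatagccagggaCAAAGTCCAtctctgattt
Lct promoter: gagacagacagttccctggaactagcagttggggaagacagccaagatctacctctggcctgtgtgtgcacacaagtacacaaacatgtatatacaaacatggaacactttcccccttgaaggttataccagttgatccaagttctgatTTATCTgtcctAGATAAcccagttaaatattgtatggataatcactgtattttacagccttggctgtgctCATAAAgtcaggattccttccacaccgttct
Sis promoter: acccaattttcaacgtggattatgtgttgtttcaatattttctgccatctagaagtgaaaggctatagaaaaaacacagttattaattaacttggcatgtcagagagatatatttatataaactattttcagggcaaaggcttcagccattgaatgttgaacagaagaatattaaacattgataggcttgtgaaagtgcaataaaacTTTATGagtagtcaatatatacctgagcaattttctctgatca

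TTTATG was present in the windows of *Fabp1*, at 2 places, and of *Lct*, *Sis* and *Epcam*, at 1 place each, that is, in 4 of the 9 windows, and in 10.8% of the 32851 RefSeq windows of the same length. In *Sis* it spans bases -43 to -38 and in *Lct* -31 to -26. Positions are counted from the RefSeq start, with the base just before it as -1. AGATAA was present in 1 of the 9 windows, that of *Lct*, at 2 places, and in 9.99% of all windows. CAAAGTCCA was present in 1, that of *Alpi*, from -19 to -11, and in 0.384% of all windows. All motifs were searched on both strands and over the full 250 bases of each window, those of *Fabp1* included. None of the matches overlapped another. The matches are letters in a window and not measured sites. The letters were chosen with these sequences in view, so the counts beside the shares of all windows do not measure an enrichment. A link between the letters and the FPKM differences was not tested.

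Summed over the 10 genes, the level was 133.78 FPKM in *Dnmt1*-WT and 324.41 FPKM in *Dnmt1*-KO, a ratio of 2.42, and without *Fabp1* it was 91.65 and 178.92 FPKM, a ratio of 1.95. Of all FPKM, the sum was 0.0311% in *Dnmt1*-WT and 0.0704% in *Dnmt1*-KO. *Fabp1* and *Fabp2* made up 60.5% of it in *Dnmt1*-WT and 71.1% in *Dnmt1*-KO. *Fabp1* took 31.5% and then 44.8%, while the share of *Alpi* went from 10.4% to 6.95% and that of *Sis* from 1.44% to 0.157%. The order by level changed little. *Fabp1*, *Fabp2*, *Alpi*, *Anpep*, *Epcam* and *Vil1* held the first 6 places in this order in both libraries, and *Sis* the last. *Cdh17* moved from place 9 to place 7, past *Lct* and *Slc5a1*.

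**Figure D3:**
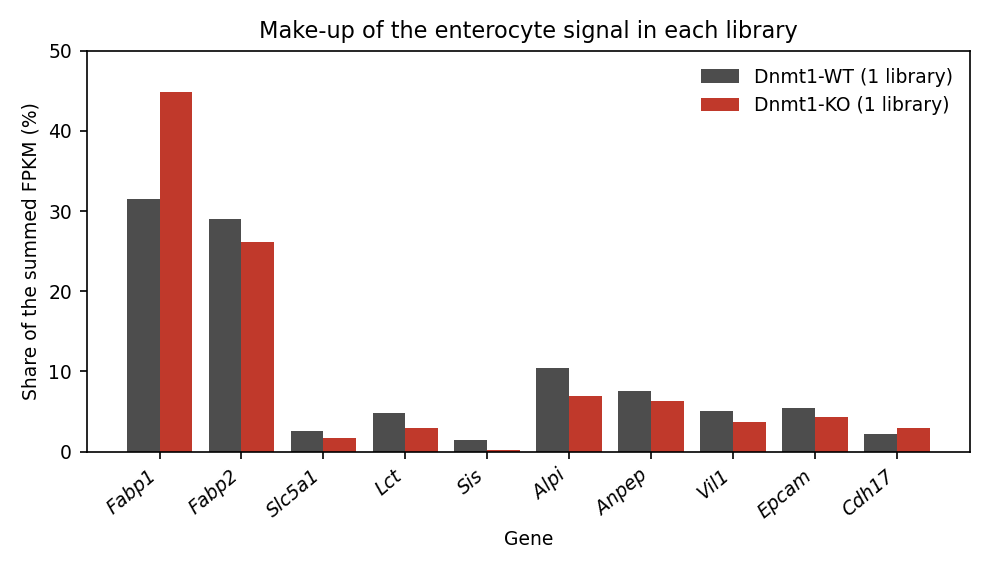
Share of the summed FPKM of the 10 enterocyte genes (y axis, in percent, from 0) taken by each gene, with a dark bar for the *Dnmt1*-WT library and a red bar for the *Dnmt1*-KO library. *Fabp1* and *Cdh17* took a larger share in *Dnmt1*-KO than in *Dnmt1*-WT, and the share of *Sis* was 0.157%.

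Other genes of digestion and absorption were compared through 4 lists that together hold 70 further genes, of which 22 had a ratio of 2 or more, 5 a ratio of 0.5 or less, 42 lay between and 1, *Tmprss15*, stood at 0.03 FPKM against 0 in *Dnmt1*-KO. Of the 69 above 0 FPKM in both libraries, 31.9% thus had a ratio of 2 or more and 7.25% a ratio of 0.5 or less, beside 11.8% and 4.98% of all genes. The lists differed among themselves. Of the 20 genes of lipid uptake and chylomicron assembly, 12 had a ratio of 2 or more and none a ratio of 0.5 or less, with a median log2 ratio of 1.08. *Apoa4* and *Apoa1*, apolipoproteins of chylomicrons, were listed at 208.37 and 433.8 FPKM and at 158.32 and 327.3 FPKM. *Rbp2*, the intestinal retinol carrier, was listed at 46.14 and 119.01 FPKM. *Mttp*, which loads lipid onto apolipoprotein B, was listed at 6.22 and 18.89 FPKM, while *Apob* itself was listed at 4.08 and 5.3 FPKM. *Mogat2*, which rebuilds diacylglycerol from absorbed monoacylglycerol, had the highest ratio of the list, 3.89, from 1.71 to 6.65 FPKM. Several genes of this list are also made outside the epithelium, among them *Cd36*, *Dgat1*, *Dgat2*, *Plin2* and *Scarb1*, which adipocytes make and which had ratios of 2 or more, and *Acsl5* and *Slc27a4*, with ratios of 1.61 and 1.05. Of 10 adipocyte genes, a list added after the data were seen, 8 had a ratio of 2 or more, with a summed level of 157.29 FPKM in *Dnmt1*-WT and 1308.47 FPKM in *Dnmt1*-KO. Among them *Adipoq*, adiponectin, was listed at 0.85 and 46.71 FPKM, *Plin1*, the coat protein of fat droplets, at 0.33 and 23.34 FPKM and *Fabp4*, the fatty acid carrier of adipocytes, at 103.72 and 874.84 FPKM. *Plin4* was listed at 32.27 and 30.34 FPKM and *Lep* at 0 and 0.2 FPKM. The part of adipocytes in the differences of the lipid genes was not tested.

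The 15 further enzymes of the apical membrane had no common direction in this tissue. Some of them, among them *Enpep* (25.16 and 17.7 FPKM), *Dpp4* (12.35 and 12.48 FPKM), *Ace* (7.27 and 14.87 FPKM) and *Mme*, are also made outside the epithelium. The counts and the sum of this list therefore do not describe enterocytes alone. Of the 14 above 0 FPKM in both libraries, 7 had a ratio above 1 and 7 below, with a median ratio of 0.908, and the summed level was 80.83 and 84.64 FPKM. A ratio of 2 or more was found for 2 of them, 14.3%, near the 11.8% of all genes, and 0.5 or less for 3, 21.4%, above the 4.98% of all genes. The median log2 ratio over the 15, *Tmprss15* included, was -0.3. *Treh*, which encodes trehalase, was listed at 1.55 FPKM in *Dnmt1*-WT and 0.4 FPKM in *Dnmt1*-KO. Its ratio of 0.258 stood next to the 0.264 of *Sis*. *Mgam*, which encodes maltase-glucoamylase, was listed at 3.76 and 3.03 FPKM, so that *Lct* was the only one of these 4 disaccharidase genes with a ratio above 1. The peptidases were spread widely: *Mep1a*, a meprin subunit, had a ratio of 2.48, *Dpp4* 1.01, *Enpep* 0.703 and *Mme* 0.373, the last from 0.67 to 0.25 FPKM.

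Of the 13 genes of microvillus structure, 3 had a ratio of 2 or more, 23.1% beside 11.8% of all genes. None had a ratio of 0.5 or less, beside 4.98% of all genes, and the median log2 ratio was 0.55. *Cdhr5*, a protocadherin that links microvilli at their tips, was listed at 8.46 and 18.45 FPKM, and *Myo7b*, a myosin of the same complex, at 1.12 and 2.57 FPKM. *Myo1a*, which ties the actin core to the membrane, had a ratio of 1.75, close to the 1.74 of *Vil1*. *Cobl*, which nucleates actin, was lower, at 11.47 and 6.69 FPKM. The 22 solute transporters had a median log2 ratio of 0.18, with 5 at a ratio of 2 or more and 2 at 0.5 or less. These were 22.7% and 9.09% of the list, beside 11.8% and 4.98% of all genes. *Slc3a1*, the heavy chain of the cystine and basic amino acid carrier, was listed at 0.91 and 2.93 FPKM and its partner *Slc7a9* at 1.19 and 2.31 FPKM. *Slc15a1*, the peptide transporter PEPT1, was listed at 0.67 and 0.28 FPKM. The sugar carriers beside *Slc5a1* were low in both libraries, *Slc2a2* at 1.13 and 1.46 FPKM and *Slc2a5* at 0.43 and 0.35 FPKM.

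**Figure D4:**
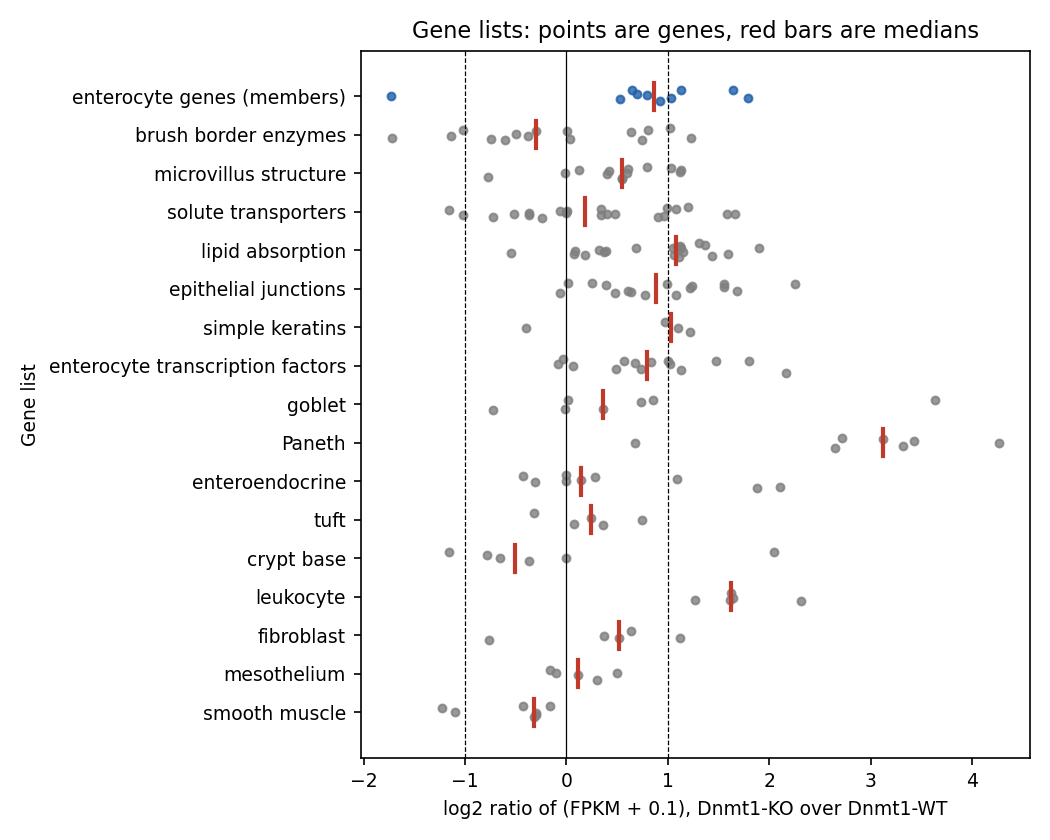
Log2 ratio of FPKM + 0.1, *Dnmt1*-KO over *Dnmt1*-WT (x axis), for the genes of each list (y axis), with 1 point per gene, a red bar at the median of the list and dashed lines at ratios of 2 and 0.5. The enterocyte genes have a median of 0.86, the lipid absorption genes 1.08 and the brush border enzymes -0.3 with *Tmprss15* included, and genes of a list that are among the 10 are shown only in the top line.

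Stage and position along the gut were read from short lists. Of the genes that become abundant at weaning, *Sis* and *Treh* are given above. Of the genes that are high before weaning, *Lct* is given above, *Fcgrt*, the receptor that takes up maternal IgG, was listed at 73.79 and 103.64 FPKM, *Ass1*, which acts in arginine synthesis, at 133.62 and 144.03 FPKM, and *Prdm1*, a transcription factor of the suckling epithelium, at 0.36 and 0.35 FPKM. *Fcgrt* and *Ass1* are made by many cell types. *Fabp6*, the bile acid binding relative of *Fabp1* and *Fabp2* that marks the ileum, was listed at 0.74 FPKM in *Dnmt1*-WT and 15.9 FPKM in *Dnmt1*-KO, a ratio of 21.5. Within a library it stood at 0.0191 times *Fabp2* in *Dnmt1*-WT and 0.187 times in *Dnmt1*-KO. The other ileal gene, *Slc10a2*, the apical bile acid transporter, was listed at 0 and 0.09 FPKM.

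Most general epithelial genes shared the direction of *Epcam* and *Cdh17*. Of 16 junction and adhesion genes, 15 had a ratio above 1, 7 of them 2 or more, with a median log2 ratio of 0.88. Over all genes above 0 FPKM in both libraries, 50.3% had a ratio above 1, 11.8% one of 2 or more and 4.98% one of 0.5 or less. *Cdh1*, E-cadherin, was listed at 1.45 and 3.51 FPKM and *Cldn7* at 4.7 and 11.24 FPKM. *Cldn15*, a claudin of the small intestine, was listed at 30.27 and 30.68 FPKM, and its ratio of 1.01 drops below 1 when the libraries are scaled to their FPKM sums. Of the 14 transcription factors of the intestinal epithelium, 6 had a ratio of 2 or more and none 0.5 or less. *Cdx2*, which sets intestinal identity, was listed at 0.57 and 2.23 FPKM and *Hnf4a* at 1.45 and 4.23 FPKM. Among the simple keratins, *Krt8*, *Krt18* and *Krt19*, which mesothelial cells also make, had ratios of 2.34, 2.15 and 1.96. *Krt20*, which marks mature cells of the villus, was listed at 7.29 and 5.52 FPKM.

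Markers of cells outside the epithelium that could hold some of the 10 genes were set beside them. The other epithelial cell types, which *Epcam* does not tell apart from enterocytes, are given further below. The shares of all genes for comparison are 11.8% at a ratio of 2 or more and 4.98% at 0.5 or less. All 5 general leukocyte genes (*Ptprc*, *Cd52*, *Laptm5*, *Coro1a* and *Lcp1*) had a ratio of 2 or more, and their summed level was 25.04 FPKM in *Dnmt1*-WT and 82.29 FPKM in *Dnmt1*-KO, single genes lying between 0.8 and 8.33 FPKM and between 2.71 and 25.88 FPKM. Of 5 fibroblast genes, 1 had a ratio of 2 or more, *Pdgfra* was lower (68.95 and 40.72 FPKM), and the summed level was 1939.9 and 3291.38 FPKM. The part of leukocytes and fibroblasts in the difference of *Anpep* was not tested. Hepatocytes make *Fabp1* and apolipoproteins too, and all 5 hepatocyte genes that were listed had a ratio of 2 or more. They summed to 1.75 and 7.02 FPKM, with *Alb*, albumin, at 0.21 and 0.85 FPKM, and their part in the differences of *Fabp1* and the apolipoproteins was not tested. The 5 mesothelial genes all lay between ratios of 0.5 and 2 and summed to 274.38 and 284.88 FPKM. Mesothelial cells also make *Krt8*, *Krt18* and *Krt19*, and their part in the keratin differences was not tested. All 7 smooth muscle genes were lower in *Dnmt1*-KO, 2 of them with a ratio of 0.5 or less (*Myh11* and *Smtn*), and their part in the higher enterocyte values was not tested. How completely the mucosa was removed from either sample cannot be told apart from genotype.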

How the data were processed

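The mRNA-seq of the P15 jejunal muscle layer was used, with 1 library per genotype, *Dnmt1*-WT and *Dnmt1*-KO. The authors deposited FPKM per gene from TruSeq RNA libraries, and the submitters' processing notes name TopHat 1.4.1, Cufflinks 2.0.2 and mm10 (GRCm38). The deposited table also holds the number of transcript variants per library, together with a fold change (a ratio) between genotypes made by the authors, which was not used. FPKM depends on the transcript model and on the mapped total of the library, so a change in abundant transcripts shifts all other values. The table holds no read counts, and counting error was not computed.

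Ratios of FPKM were computed without rescaling for genes above 0 in both libraries, with 2 or more and 0.5 or less as limits. Medians used log2 of FPKM + 0.1. No test was made. The symbol *Fgb* of the hepatocyte list was not matched, and the other list symbols were. Some members of the lists are counted but not reported singly here. The 10 genes, the lists and the motif letters were chosen with earlier results of these data known, and the motif letters also with the sequences in view. Named were the 10 genes, *Dnmt1*, genes of a list where it is described, and the 5 genes nearest to *Fabp1* and to *Slc5a1* over both libraries. Positions came from GENCODE M21 (GRCm38) and promoter sequences from RefSeq (GRCm38.p6). Alternatives were the scaling, the pseudocount, a filter at 1 FPKM, the fold, and the sum without *Fabp1*, the last, like the adipocyte list, chosen after seeing the data. Counting past a fold and scaling were tested on simulated data. Python 3.11.15, numpy 2.4.6, pandas 2.3.3 and matplotlib 3.10.9 were used.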

Additional observations from a re-analysis of the deposited data

How the results depend on the processing

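The median log2 ratio of the 10 enterocyte genes, 0.86, became 0.89 with median centring or the upper quartile and 0.76 with the FPKM sum. It was 0.77 with the FPKM sum over symbols that do not begin with Mir, Snor, Scarna or Rn. That filter was meant for small RNA genes but also drops others, such as *Rnasek*. With a pseudocount of 1 the median was 0.79, and with 0.01 it was 0.87. The summed ratio of 2.42 became 2.48, 2.48, 2.26 and 2.27 under the same 4 scalings, and 1.95 without *Fabp1*, an alternative chosen after seeing the data. Of the 10 enterocyte genes, the number at a ratio of 2 or more was 3 with either FPKM sum or a pseudocount of 1, when *Anpep* was lost. It was 8 at a fold of 1.5 and 2 at a fold of 3. The share of all genes was 11.8% at a fold of 2 and was not computed at 1.5 or 3, so these 2 counts have no share to be read against. All 10 genes passed the filter at 1 FPKM in at least 1 library. The count of 22 among the 70 further genes lay between 17 and 23 under the 4 scalings and was not recomputed under the other alternatives. The log2 ratio of *Sis*, -1.73 with the pseudocount of 0.1, ranged from -1.9 with 0.01 to -0.96 with 1, and with 1 it no longer reached a ratio of 0.5 or less. No paired analysis was possible because each genotype has 1 library. No error was computed for low values such as the 0.51 FPKM of *Sis*.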

Other observations

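The other epithelial cell types of the small intestine were read from lists of their own. Over all genes above 0 FPKM in both libraries, 11.8% had a ratio of 2 or more. Of 7 Paneth cell genes, 4 had a ratio of 2 or more and *Mptx2* and *Mmp7* were listed at 0 in *Dnmt1*-WT against 1.83 and 0.77 FPKM in *Dnmt1*-KO, with a median log2 ratio of 3.12 and a summed level of 16.88 and 162.56 FPKM. *Lyz1*, the Paneth cell lysozyme, was listed at 1.17 and 13.61 FPKM. Of 7 goblet cell genes, 1 had a ratio of 2 or more, 14.3%, near the 11.8% of all genes. The 1 gene was *Spink4*, a protease inhibitor family member, which went from 5.26 to 66.6 FPKM. *Muc2*, the main intestinal mucin, was listed at 2.31 and 4.24 FPKM and *Zg16*, a lectin of the mucus granule, at 63.1 and 38.22 FPKM. The 9 enteroendocrine genes had a median log2 ratio of 0.14. Beside 11.8% of all genes, 33.3% of them, 3 genes, had a ratio of 2 or more. These were the hormone genes *Sct* (0.65 and 3.13 FPKM), *Gcg* (0.42 and 1.81 FPKM) and *Pyy* (0.6 and 1.39 FPKM), while *Cck* (4.34 and 4.35 FPKM) and *Gip* (4.09 and 3.29 FPKM) did not. Of 6 tuft cell genes, *Gnat3* was listed at 0 in both libraries, and the other 5 had a median log2 ratio of 0.24. *Trpm5*, *Pou2f3* and *Il25* lay between 0.04 and 0.61 FPKM. *Dclk1* (16.09 and 16.9 FPKM) and *Avil* (7.67 and 9.09 FPKM) are also made outside the epithelium, as are *Chga* and *Chgb* of the enteroendocrine list. Of the 6 crypt base genes, 4 had a ratio below 1, and the median log2 ratio was -0.51. *Smoc2* was listed at 174.7 and 101.67 FPKM, *Rgmb* at 127.27 and 80.45 FPKM, *Axin2* at 8.23 and 6.36 FPKM and *Ascl2* at 0.19 and 0.03 FPKM. *Lgr5* was listed at 0.18 FPKM in both libraries, and *Olfm4*, at 1.02 and 4.55 FPKM, was the only gene of the list with a ratio above 1. *Smoc2* and *Rgmb* are also made outside the epithelium.

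The genes nearest to *Fabp1* over the 2 libraries, by Euclidean distance of log2 of FPKM + 0.1, were *Cartpt* (37.83 and 144.29 FPKM, distance 0.155), *Ifi27l2a*, *Rpph1*, *Rbp2* and *2410006H16Rik*. *Rbp2* is the only one of the 5 that is on a list of absorption genes. Nearest to *Slc5a1* were *Cgn* (3.45 and 5.44 FPKM, distance 0.00483), *Arhgef15*, *Nrarp*, *Traf4* and *Prr15l*, of which *Cgn*, cingulin, is on the list of epithelial junction genes. With 2 libraries, nearness describes a pair of levels only.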
